A study of Mus musculus with 5 samples.

Results

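The mitosis and chromosome segregation genes are the genes whose products condense the chromosomes, build the spindle, attach chromosomes to it, trigger their separation and divide the cell. They were taken as a list of 55 named genes, chosen with earlier results of these data known, so counts over them are descriptions. Of these, 52 had a row of the deposited table paired with 1 gene symbol, among 12267 genes tested in all. One of the 52 was matched through its older symbol, Sgol2a, and is given here as Sgo2a. Ccnb1, Cks1b and Kif18b had no row paired with 1 gene and were not analysed here. For each gene the row with the highest mean over the 5 arrays was used, and all values are log2(intensity + 1) unless said otherwise.

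The samples were CD4 single-positive (CD4SP) thymocytes, the T cells of the thymus that have kept CD4 and lost CD8, sorted by flow cytometry from mice of the C57BL/6J background aged 4 to 6 weeks. There were 3 arrays of cells from mice with a transgene for PLZF, the zinc finger factor encoded by Zbtb16 that directs innate-like T cells, and 2 arrays of wild type cells. Each array held RNA from pooled mice, and the labels name neither the promoter that drives the transgene nor the number of mice in a pool. Of 17 listed markers of mature T cells 7 were measured, Cd247, Cd5, Cd2, Cd28, Zap70, Ccr7 and S1pr1, and they averaged 11.01 to 11.09 in the transgenic arrays and 11.59 to 11.66 in the wild type arrays. Cd4, Cd8a and Zbtb16 were not analysed here, so the sort and the genotype were not checked on these genes.

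Mitotic genes are transcribed late in the cell cycle, so their transcripts mark cycling cells, and many of their products are destroyed as the cell leaves mitosis. In the thymus most division takes place before the single-positive stage, and CD4SP cells are largely at rest, with some division again in the most mature cells. The MuvB complex, with B-MYB and FOXM1 when genes are on and with p130 or p107 and E2F4 when they are off, binds many of these promoters at a short element called the cell cycle genes homology region, and the factor NF-Y binds CCAAT boxes beside it.

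These elements were common in the promoters of the mitosis genes. In windows from 250 bases before to 50 bases after the annotated start (RefSeq, GRCm38.p6), searched on both strands, 28 of 42 matched members (66.7%) held TTTGAA or TTCGAA, against 19.4% of 27025 genes in the promoter table. At least 1 CCAAT was held by 29 of 42 (69.0%), against 37.9% of the table, and both elements by 22 of 42 (52.4%), against 7.7%. An E2F element (TTTGGCGC, TTTCCCGC or TTTCGCGC) was held by 4 of 42 (9.52%), against 1.91%. Related lists held them too: CCAAT was found in 69.2% of 26 other mitosis genes and 65.2% of 23 DNA replication genes, and the E2F element in 7.69% and 30.4% of these lists. TTTGAA or TTCGAA was found in 13 of the 26 other mitosis genes and 3 of the 23 DNA replication genes. Matches of different elements or strands overlapped in 2 of the 42 windows. A match describes the letters only and is no measure of binding. The 4 promoters below belong to genes described in full further on and show how the elements are arranged. Capitals mark the matches, and each line reads 5′ to 3′ on the gene's strand. Ube2c lies at chr2:164769679-164769978 (plus strand), Top2a at chr11:99024140-99024439 (minus), Cdk1 at chr10:69352863-69353162 (minus) and Bub1b at chr2:118597961-118598260 (plus).
Ube2c: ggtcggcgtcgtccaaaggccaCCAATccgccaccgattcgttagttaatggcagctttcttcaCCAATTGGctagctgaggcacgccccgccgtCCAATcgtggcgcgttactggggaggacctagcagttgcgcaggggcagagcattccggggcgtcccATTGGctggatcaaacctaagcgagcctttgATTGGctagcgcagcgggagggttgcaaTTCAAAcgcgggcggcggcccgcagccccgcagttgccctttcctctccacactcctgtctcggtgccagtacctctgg
Top2a: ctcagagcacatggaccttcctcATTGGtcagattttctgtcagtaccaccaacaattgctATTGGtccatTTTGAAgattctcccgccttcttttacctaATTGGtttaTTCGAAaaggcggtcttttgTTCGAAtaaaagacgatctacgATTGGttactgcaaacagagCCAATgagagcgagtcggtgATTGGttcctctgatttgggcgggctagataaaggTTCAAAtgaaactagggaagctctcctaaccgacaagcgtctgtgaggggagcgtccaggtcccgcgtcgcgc
Cdk1: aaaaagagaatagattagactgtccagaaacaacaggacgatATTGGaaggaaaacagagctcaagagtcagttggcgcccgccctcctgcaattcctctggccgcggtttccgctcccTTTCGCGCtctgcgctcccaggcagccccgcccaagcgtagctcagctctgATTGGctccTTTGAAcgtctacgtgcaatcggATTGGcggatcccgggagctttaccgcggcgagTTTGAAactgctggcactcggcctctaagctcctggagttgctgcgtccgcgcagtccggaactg
Bub1b: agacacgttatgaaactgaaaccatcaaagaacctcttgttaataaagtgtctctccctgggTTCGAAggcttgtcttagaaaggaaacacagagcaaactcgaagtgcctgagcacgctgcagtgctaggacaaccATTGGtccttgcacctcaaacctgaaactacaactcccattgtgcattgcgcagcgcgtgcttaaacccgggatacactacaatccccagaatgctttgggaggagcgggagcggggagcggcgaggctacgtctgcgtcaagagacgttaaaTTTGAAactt
In Ube2c the homology region element starts 29 bases before the start of transcription, with 6 CCAAT matches upstream of it. Those that begin 186 and 183 bases before the start lie on opposite strands and overlap. In Top2a the nearest of 4 homology region elements starts 23 bases before the start of transcription, again with 6 CCAAT matches. Cdk1 has elements 71 and 15 bases before its start, 3 CCAAT matches and 1 E2F element, and Bub1b has 1 element 188 bases before its start, 1 on the 41st base after it, and 1 CCAAT match. The 28 members with the element had a median log2 change of -0.42 (range -0.74 to -0.04) and the 14 without it of -0.28 (range -0.58 to 0.63), a difference that was not tested. The windows of Pttg1, Kif14, Aspm, Aurka and Ect2 lie at start sites over 250 bases inside the outermost annotated start of the gene, 1482 bases for Pttg1. Kif14, Aspm, Aurka and Ect2 held the element in these windows and Pttg1 did not, and neither result describes the outermost promoter. Leaving out these 5 windows, a choice made after the values were seen, 24 of 37 members (64.9%) held the element. The medians were then -0.42 over the 24 members with the element and -0.34 over 13 without it.

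PLZF transgenic CD4SP cells had lower values than wild type cells for nearly every mitosis gene, and Pttg1, which encodes securin, was the exception. The log2 change, transgenic minus wild type, was negative in 51 of 52 members and positive in 1. Its median over the members was -0.38, against 0.0 over all genes tested. Changes were below -0.5 in 16 members, a size found in 2.64% of all genes, between -0.5 and -0.2 in 26, and between -0.2 and 0 in 9. In 44 members the 3 transgenic arrays all lay below both wild type arrays, which 15.1% of all genes showed, and in 1 they all lay above, which 12.6% showed. In the other 7 the groups overlapped. Among all genes with 5 different values in the 5 arrays, 35.3% lay lower without overlap and 27.8% higher. In these bulk samples, fewer dividing cells and less mitotic RNA per cell cannot be told apart.

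Past the threshold, an adjusted p of 0.05 in limma with Benjamini-Hochberg adjustment over all genes, 2 members fell, Smc4 and Ube2c, and 1 rose, Pttg1. The share of all genes called lower was 3.02% and called higher 1.72%, so a count of 2 among 52 is near the background. At an unadjusted p under 0.05 there were 28 members with lower values, against 9.74% of all genes, and 1 with a higher value, against 7.07%. Without transgenic replicate 1, 2 or 3 no member passed, and without wild type replicate 1 there were 12 that fell, beside 1571 of all genes. In a fit of the genes with 5 different values in the 5 arrays, 19 of 42 members fell, against 15.5% of those genes, and 1 rose, against 10.4%. Leaving out 1 transgenic array moved this 19 to 4, 2 and 13 without replicates 1, 2 and 3. The share of all genes with 5 different values called in those fits was not counted. In the fit over all genes 2, 34 and 7 genes fell without these arrays, so the calls moved well beyond the members. With array weights, or with the replicate number as a block, 0 members passed. Over all genes 0 fell and 1 rose with array weights, and 0 fell and 0 rose with the block. The array weights were 0.21 for each wild type array and 1.83, 3.36 and 3.7 for transgenic replicates 1, 2 and 3.

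The members shared their differences between replicates. The mean over the 52 members was 7.52, 7.59 and 7.69 in the transgenic arrays and 7.84 and 8.09 in the wild type arrays. Wild type replicate 2 lay above replicate 1 in 51 of 52 members, by a median of 0.26 on the log2 scale, against 47.2% of all genes and a median of 0.0. Within the transgenic group replicate 1 was the lowest in 39 members, against 25.7% of all genes, and replicate 3 the highest in 41, against 17.8%. The order of transgenic replicates 1, 2 and 3 and then wild type replicates 1 and 2, from low to high, was seen in 30 members (57.7%) and in 2.13% of all genes. Identical values in several arrays, which lower such shares, were more common over all genes. Among genes with 5 different values, wild type replicate 2 lay above replicate 1 in 63.6%. In these genes transgenic replicate 1 was the lowest in 44.7%, replicate 3 the highest in 33.2%, and the full order was seen in 6.48%. A single pattern over arrays, which includes the difference between the groups, held 92.9% of the members' variation about their own means, and 68.9% over all genes. It held 89.9% for the other mitosis genes, 99.1% for the mature T cell markers and 66.5% for the DNA replication genes. Across members, the difference between transgenic replicates 3 and 1 correlated at 0.209 with that between wild type replicates 2 and 1.

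**Figure D1:**
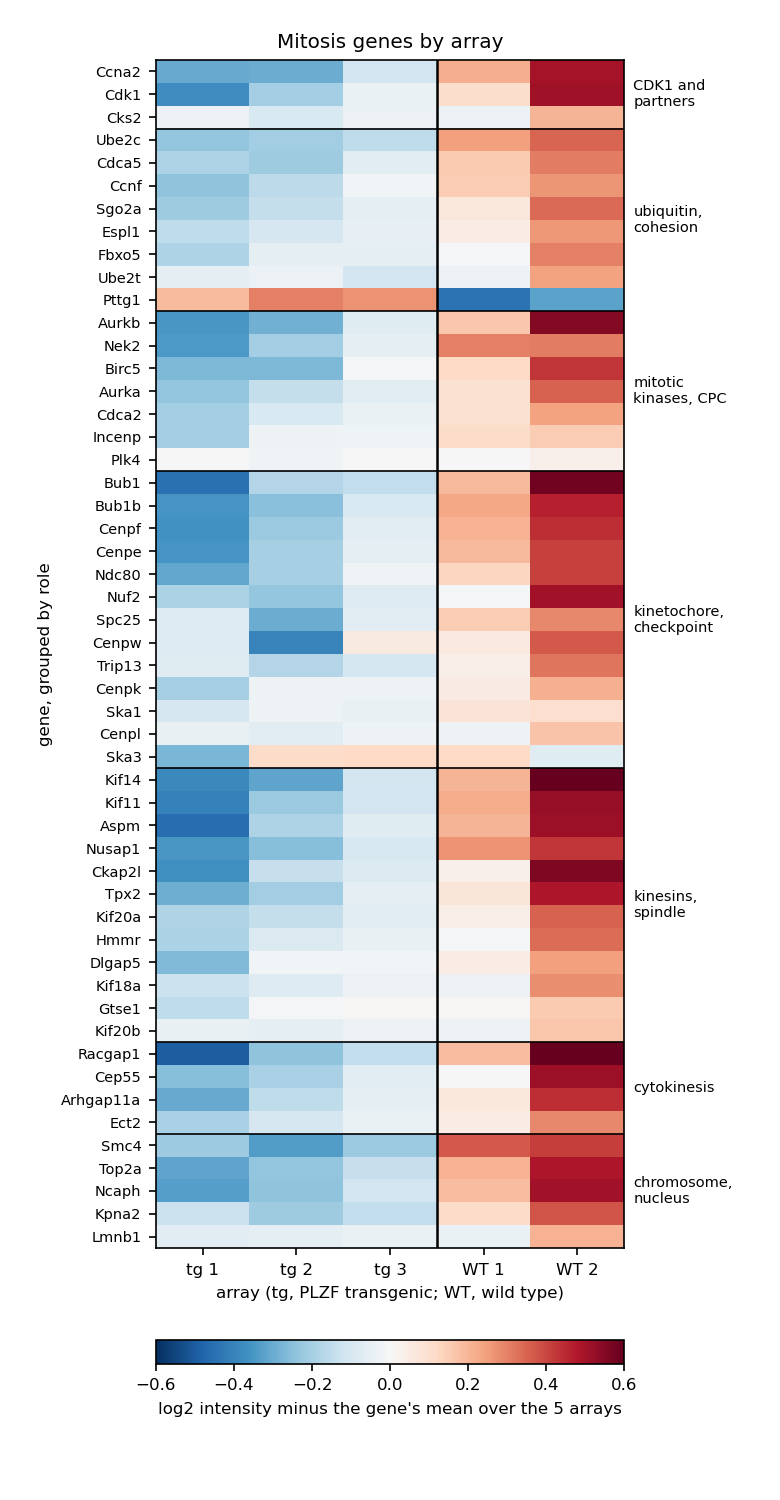
Log2 intensity of each of the 52 mitosis genes minus its mean over the 5 arrays (colour, which saturates at 0.6 either way), with genes grouped by role, PLZF transgenic arrays (tg) left of the line and wild type arrays (WT) right of it. Nearly all genes are lowest in the transgenic arrays and highest in wild type replicate 2, and Pttg1 runs the other way.

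Set against each wild type array alone, the members were lower in every transgenic array, but by different amounts. Against wild type replicate 1 the median difference was -0.32, -0.23 and -0.13 in transgenic replicates 1, 2 and 3, with 50, 50 and 45 of 52 members lower. Against wild type replicate 2 it was -0.55, -0.54 and -0.42, with 51, 50 and 50 lower. In these comparisons 31.0% to 38.2% of all genes were lower, where identical values, found in several arrays in 67.2% of all genes, counted as not lower. The median change of the fit was -0.23 without wild type replicate 2 and -0.51 without wild type replicate 1, so its size rests on which wild type array is used and its sign does not.

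The enzymes at the top of the mitotic programme, cyclin-dependent kinase 1 and its partners, had 3 of 5 listed genes measured, and none passed the test. Ccna2 encodes cyclin A2, which drives S phase and entry into mitosis, and measured 8.68, 8.69 and 8.87 in the PLZF transgenic arrays, against 9.21 and 9.48 in the wild type arrays. The groups were apart by 0.34, more than the range within either group, and the change was -0.60 ± 0.12 (SE; limma adjusted p = 0.118). Cdk1, the kinase that starts mitosis, measured 8.05, 8.21 and 8.38 in the PLZF transgenic arrays, against 8.52 and 8.93 in the wild type arrays. The highest transgenic array lay only 0.14 below the lower wild type array, and the change was -0.51 ± 0.18 (SE; limma adjusted p = 0.321). Cks2, a small subunit that docks the kinase on its substrates, measured 6.48, 6.42 and 6.48 in the PLZF transgenic arrays, against 6.48 and 6.72 in the wild type arrays. Transgenic replicates 1 and 3 and wild type replicate 1 had identical values, so that only wild type replicate 2 stood apart, and the change was -0.14 ± 0.09 (SE; limma adjusted p = 0.458).

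Among the ubiquitin enzymes and regulators of cohesion, which time the destruction of cyclins and the release of sister chromatids, 8 of 8 were measured, with 1 that fell, 1 that rose and 6 that did not pass. Ube2c is the E2 enzyme that starts ubiquitin chains for the anaphase-promoting complex. It measured 7.56, 7.59 and 7.64 in the PLZF transgenic arrays, against 8.04 and 8.15 in the wild type arrays. All transgenic arrays lay below both wild type arrays, and the change was -0.50 ± 0.05 (SE; limma adjusted p = 0.0315), or 1.41-fold lower. Pttg1, or securin, holds the protease separase inactive until anaphase, and it measured 9.36, 9.47 and 9.44 in the PLZF transgenic arrays, against 8.73 and 8.85 in the wild type arrays. The transgenic arrays were all higher by at least 0.51, against ranges of 0.11 and 0.12 within the transgenic and wild type groups, and the change was 0.63 ± 0.06 (SE; limma adjusted p = 0.0294), or 1.55-fold higher. With 1 array left out in turn the change of Pttg1 ran from 0.57 to 0.69 and that of Ube2c from -0.55 to -0.44, while neither passed without any 1 of the transgenic arrays.

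Espl1, separase itself, which cuts cohesin, had a log2 change of -0.25 ± 0.08 (SE; limma adjusted p = 0.28), opposite in sign to that of securin, its inhibitor. Cdca5, or sororin, which protects cohesin from removal, measured 7.53, 7.50 and 7.65 in the PLZF transgenic arrays, against 7.88 and 8.02 in the wild type arrays. The groups did not overlap, and the change was -0.39 ± 0.07 (SE; limma adjusted p = 0.102). Sgo2a, or shugoshin 2, which guards centromeric cohesion, had a change of -0.34, Ccnf, an F-box protein named for its cyclin fold, of -0.35, and Fbxo5, the inhibitor of the anaphase-promoting complex known as EMI1, of -0.24. For Ube2t, the E2 enzyme of the Fanconi anaemia repair pathway, the groups overlapped (log2 change -0.17). The limma adjusted p values of these 4 lay between 0.18 and 0.458.

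**Figure D2:**
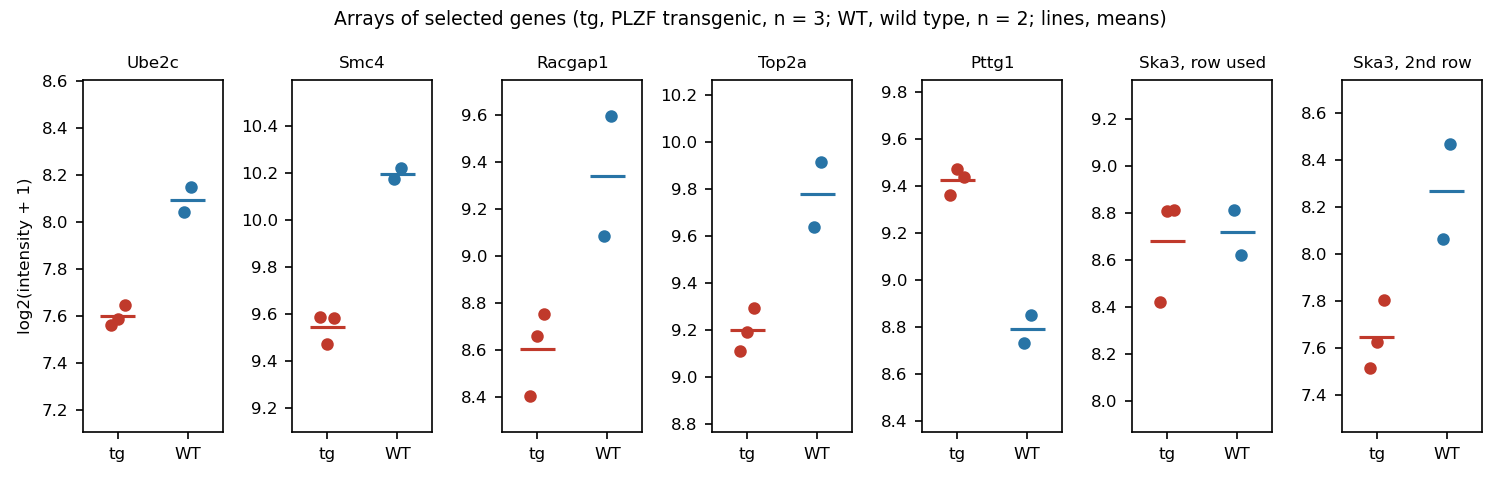
Log2(intensity + 1) of selected mitosis genes in each PLZF transgenic array (tg, n = 3) and wild type array (WT, n = 2), with lines at the group means and the same span of 1.5 on every vertical axis. Ube2c, Smc4, Racgap1 and Top2a are lower in all transgenic arrays, Pttg1 is higher in all of them, and the 2 brighter rows of Ska3 differ from each other.

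The mitotic kinases and the chromosomal passenger complex, which correct faulty attachments and steer cytokinesis, had lower transgenic values in 7 of 7 measured genes with no overlap between groups, and none passed the test. Over all genes 15.1% lay lower without overlap, and 35.3% of those with 5 different values. Aurkb, the kinase of the passenger complex, measured 8.36, 8.42 and 8.64 in the PLZF transgenic arrays, against 8.87 and 9.26 in the wild type arrays. The wild type arrays differed by 0.39 from each other, more than the gap of 0.24 between the groups, and the change was -0.60 ± 0.17 (SE; limma adjusted p = 0.215). Nek2, a kinase that splits the centrosomes, measured 6.81, 6.95 and 7.09 in the PLZF transgenic arrays, against 7.45 and 7.46 in the wild type arrays. Its wild type arrays nearly coincided, all transgenic arrays were lower by at least 0.36, and the change was -0.51 ± 0.10 (SE; limma adjusted p = 0.11). Birc5, or survivin, the passenger subunit that recognises centromeres, measured 7.40, 7.40 and 7.66 in the PLZF transgenic arrays, against 7.79 and 8.10 in the wild type arrays. Transgenic replicate 3 came within 0.13 of wild type replicate 1, and the change was -0.46 ± 0.15 (SE; limma adjusted p = 0.275). Aurka, the centrosomal Aurora kinase, had a log2 change of -0.37, Cdca2, which targets protein phosphatase 1 to chromosomes as they leave mitosis, of -0.28, and Incenp, the scaffold of the passenger complex, of -0.22, with limma adjusted p values between 0.218 and 0.294. Plk4, the kinase that starts centriole duplication, had the smallest change, at -0.03 ± 0.01 (SE, limma adjusted p = 0.458).

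Kinetochore and spindle checkpoint genes, whose products bind microtubules and delay anaphase until all chromosomes are attached, had negative changes in 13 of 13 measured. Of these, 12 had no overlap between groups, against 15.1% of all genes and 35.3% of those with 5 different values, and none passed. Bub1, a checkpoint kinase at the kinetochore, measured 7.57, 7.84 and 7.87 in the PLZF transgenic arrays, against 8.21 and 8.59 in the wild type arrays. All transgenic arrays were lower by at least 0.34, less than the 0.38 between the wild type arrays, and the change was -0.64 ± 0.17 (SE; limma adjusted p = 0.201). Bub1b, which encodes the checkpoint protein BUBR1, measured 7.98, 8.08 and 8.24 in the PLZF transgenic arrays, against 8.56 and 8.80 in the wild type arrays. The gap of 0.32 exceeded the range within either group, and the change was -0.58 ± 0.12 (SE; limma adjusted p = 0.125). Cenpf, a large protein of the outer kinetochore, measured 7.42, 7.57 and 7.72 in the PLZF transgenic arrays, against 8.0 and 8.23 in the wild type arrays. The groups did not overlap, and the change was -0.55 ± 0.13 (SE; limma adjusted p = 0.158). Of the other kinetochore genes, the motor gene Cenpe had a log2 change of -0.51, and the NDC80 complex genes Ndc80, Nuf2 and Spc25, whose products grip the microtubule end, of -0.45, -0.41 and -0.36. Trip13, an ATPase that takes the checkpoint complex apart, had a log2 change of -0.30. The limma adjusted p values of these 5 lay between 0.174 and 0.457.

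The inner kinetochore genes Cenpw, Cenpk and Cenpl had log2 changes of -0.36, -0.22 and -0.12 (limma adjusted p 0.389 to 0.458). Cenpw, the member with the lowest mean and the one below the 25th percentile of gene means (5.63), measured 5.25, 4.93 and 5.38 in the PLZF transgenic arrays, against 5.39 and 5.70 in the wild type arrays. The range of 0.46 within the transgenic group was larger than the change itself. Ska1, of the SKA complex that tracks shrinking microtubules, had a small change of -0.15 ± 0.03 (SE; limma adjusted p = 0.102), with no overlap between groups. For Ska3, of the same complex, 3 rows disagreed. The brightest row, which the selection rule takes, measured 8.42, 8.81 and 8.81 in the PLZF transgenic arrays, against 8.81 and 8.62 in the wild type arrays. Transgenic replicate 1 was low and the other arrays overlapped, and the change was -0.04 ± 0.17 (SE; limma adjusted p = 0.999). The next row measured 7.51, 7.62 and 7.81 in the transgenic arrays, against 8.07 and 8.47 in the wild type arrays, a difference of -0.62 with no overlap, in the same order of arrays as most members. The dimmest row, with a mean of 4.42 over the 5 arrays, differed by -0.41 with overlap between groups, and only wild type replicate 2 (4.95) stood apart.

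Kinesins and spindle proteins, the motors and microtubule binders that build the spindle, had 12 of 13 listed genes measured, with negative changes in 12. There was no overlap between groups in 9, against 15.1% of all genes and 35.3% of those with 5 different values, and none passed the test. Kif14, a kinesin needed for cytokinesis, measured 6.83, 6.90 and 7.11 in the PLZF transgenic arrays, against 7.42 and 7.82 in the wild type arrays. All transgenic arrays were lower, and the change was -0.68 ± 0.17 (SE; limma adjusted p = 0.176). Kif11, the kinesin that pushes the spindle poles apart, measured 9.10, 9.29 and 9.39 in the PLZF transgenic arrays, against 9.73 and 10.03 in the wild type arrays. The gap of 0.34 exceeded the range within either group, and the change was -0.62 ± 0.15 (SE; limma adjusted p = 0.151). Aspm, which organises spindle poles, measured 7.05, 7.32 and 7.43 in the PLZF transgenic arrays, against 7.71 and 8.02 in the wild type arrays. The groups did not overlap, and the change was -0.59 ± 0.17 (SE; limma adjusted p = 0.227). Nusap1, which bundles spindle microtubules, had values of 9.01, 9.11 and 9.26 in the transgenic arrays, against 9.63 and 9.79 in the wild type arrays (log2 change -0.58 ± 0.10, SE, limma adjusted p = 0.0913). Of its 2 dimmer rows, 1 (mean 6.18) differed by 0.13 with overlap between groups. The other (mean 5.39) differed by -0.49, at 5.28, 5.17 and 5.12 in the transgenic arrays, against 6.00 and 5.37 in the wild type arrays.

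The remaining 8 spindle genes had smaller changes. Ckap2l had a log2 change of -0.49, Tpx2, the activator of Aurora A on the spindle, of -0.46, and Kif20a, a kinesin of the central spindle, of -0.33. Hmmr and Dlgap5, both microtubule binders of the spindle, had log2 changes of -0.27 and -0.24. Kif18a, a kinesin that damps chromosome movement, Gtse1, a microtubule-associated protein, and Kif20b, a kinesin of late cytokinesis, had log2 changes of -0.20, -0.14 and -0.11. In these last 3 transgenic replicate 3 and wild type replicate 1 had identical values, and wild type replicate 2 alone was higher. Limma adjusted p values of the 8 genes lay between 0.311 and 0.458.

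The 4 cytokinesis genes, all measured, had lower values in every transgenic array, and none passed the test. Such separation was shown by 15.1% of all genes and 35.3% of those with 5 different values. Racgap1, a subunit of the centralspindlin complex that marks the division plane, had the most negative change of the members. It measured 8.40, 8.66 and 8.75 in the PLZF transgenic arrays, against 9.09 and 9.60 in the wild type arrays. The wild type arrays differed by 0.51 from each other, more than the gap of 0.33 between the groups, and the change was -0.74 ± 0.22 (SE; limma adjusted p = 0.231). It was -0.48 without wild type replicate 2 and -0.99 without wild type replicate 1. Cep55, which recruits the machinery that cuts the midbody, measured 6.19, 6.25 and 6.39 in the PLZF transgenic arrays, against 6.45 and 6.96 in the wild type arrays. The gap was 0.06 against 0.51 between the wild type arrays, and the change was -0.43 ± 0.19 (SE; limma adjusted p = 0.454). Arhgap11a, a GTPase-activating protein, measured 8.18, 8.33 and 8.42 in the PLZF transgenic arrays, against 8.54 and 8.92 in the wild type arrays. Wild type replicate 2 stood apart from wild type replicate 1 by more than replicate 1 did from the transgenic arrays, and the change was -0.42 ± 0.16 (SE; limma adjusted p = 0.342). Ect2, an exchange factor needed for cytokinesis, had a log2 change of -0.28 ± 0.10 (SE; limma adjusted p = 0.33).

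Genes of chromosome structure and of the nucleus gave the second member that fell. Smc4, the ATPase core of condensin, was the member whose row had the highest mean and measured 9.59, 9.47 and 9.58 in the PLZF transgenic arrays, against 10.17 and 10.22 in the wild type arrays. The transgenic arrays differed by 0.12 and the wild type arrays by 0.05, against a gap of 0.59, and the change was -0.65 ± 0.05 (SE; limma adjusted p = 0.021), or 1.57-fold lower. With 1 array left out in turn it ran from -0.67 to -0.61, with no call without any 1 of the transgenic arrays. Top2a, the topoisomerase that untangles sister chromatids, measured 9.11, 9.19 and 9.29 in the PLZF transgenic arrays, against 9.64 and 9.91 in the wild type arrays. The gap of 0.35 exceeded the range within either group, and the change was -0.58 ± 0.11 (SE; limma adjusted p = 0.111). Ncaph, the subunit that closes the condensin I ring, measured 8.13, 8.22 and 8.35 in the PLZF transgenic arrays, against 8.65 and 8.97 in the wild type arrays. All transgenic arrays were lower, and the change was -0.57 ± 0.13 (SE; limma adjusted p = 0.15). For Kpna2, an importin alpha that carries proteins into the nucleus, the log2 change was -0.41 (limma adjusted p = 0.155), and for Lmnb1, or lamin B1, it was -0.14 (limma adjusted p = 0.458), with identical values in transgenic replicate 3 and wild type replicate 1.

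**Figure D3:**
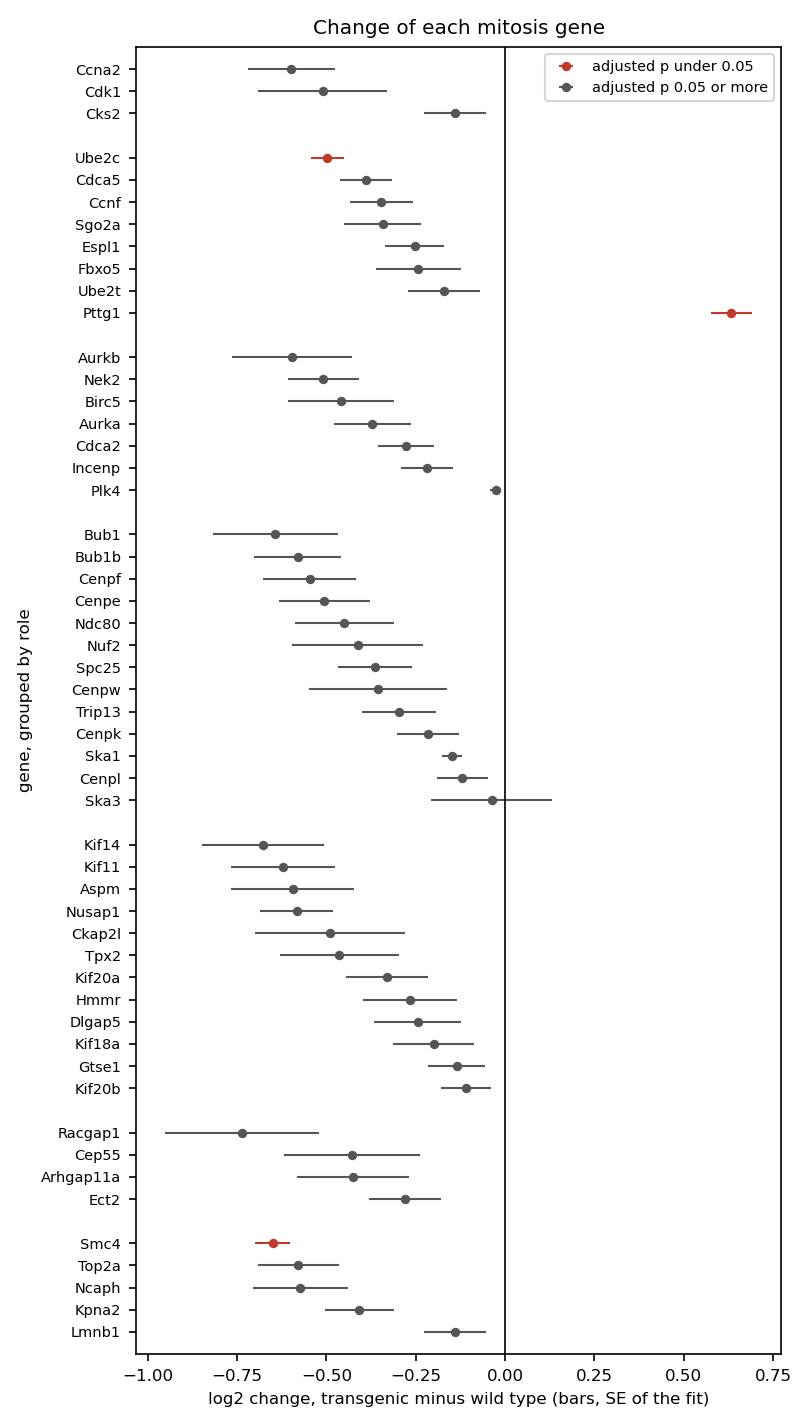
Log2 change of each mitosis gene, PLZF transgenic (n = 3) minus wild type (n = 2), with the SE of the limma fit, in the same order of roles as the values by array. Smc4 at -0.65 and Ube2c at -0.50 fell, Pttg1 at 0.63 rose, and the other 49 did not pass the threshold.

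By how far the groups were separated, 11 members stood out. In Smc4, Ube2c, Nusap1, Nek2, Top2a, Kif11, Ccna2, Bub1b, Cdca5 and Ska1 the gap below the wild type arrays was larger than the range within either group, which 6.87% of all genes showed in this direction. Pttg1 showed it in the other direction, with 4.61% of all genes. Members with identical values in several arrays were fewer than elsewhere, since 42 of 52 (80.8%) had 5 different values, against 32.8% of all genes. Among the 42, the transgenic arrays all lay below wild type in 40 and above in 1, against 35.3% and 27.8% of all genes with 5 different values.

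Of 66 mitosis genes outside the list 31 were measured, with a median change of -0.17 and negative changes in 28. Cep152, a centriole scaffold gene, was the one that fell (-0.06 ± 0.01, SE, limma adjusted p = 0.0398), and none rose. Their arrays showed the same order at the top, with wild type replicate 2 above replicate 1 in 30 of 31 by a median of 0.215. The difference from the members was not tested. Of 8 measured subunits and partners of the anaphase-promoting complex, most of which are present throughout the cell cycle, none passed (median -0.02), and Anapc11 had the largest change (-0.18, limma adjusted p = 0.458).

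In the list of cohesin and its loaders, 6 genes were measured and Esco2 fell, while none rose (median -0.0050). Esco2, the acetyltransferase that makes cohesion during S phase, measured 8.45, 8.51 and 8.57 in the PLZF transgenic arrays, against 9.22 and 9.37 in the wild type arrays. The transgenic arrays were all lower, and the change was -0.78 ± 0.07 (SE; limma adjusted p = 0.0266).

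Of 24 listed regulators of cell cycle transcription 14 were measured, 3 fell and 1 rose (median -0.11). Rbl1 encodes p107, a pocket protein that joins E2F factors and MuvB in repression, and measured 8.95, 8.98 and 9.01 in the PLZF transgenic arrays, against 10.11 and 10.14 in the wild type arrays. It was lower in all transgenic arrays, with a change of -1.14 ± 0.02 (SE; limma adjusted p = 0.00699), or 2.21-fold lower. E2f2, an activating E2F factor, measured 7.35, 7.32 and 7.23 in the PLZF transgenic arrays, against 8.16 and 8.46 in the wild type arrays, and its change was -1.01 ± 0.11 (SE; limma adjusted p = 0.0411). Lin9, a subunit of MuvB, fell, with a change of -0.34 ± 0.04 (SE; limma adjusted p = 0.0481). Rb1, the retinoblastoma protein gene, rose by 0.40 ± 0.03 (SE, limma adjusted p = 0.0232).

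DNA replication genes, which are switched on before mitosis genes in the same cycle, had a median change of -0.02 over 27 measured, with 17 negative, 9 positive and 1 at no change, and none passed the test in limma, while 3 had an unadjusted p under 0.05. Clspn had the largest change (-0.39, limma adjusted p = 0.0976). The transgenic arrays all lay below wild type in 7 of these 27 genes, which 15.1% of all genes showed, and all above in 3, which 12.6% showed. The difference between the mitosis and replication genes was not tested.

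**Figure D4:**
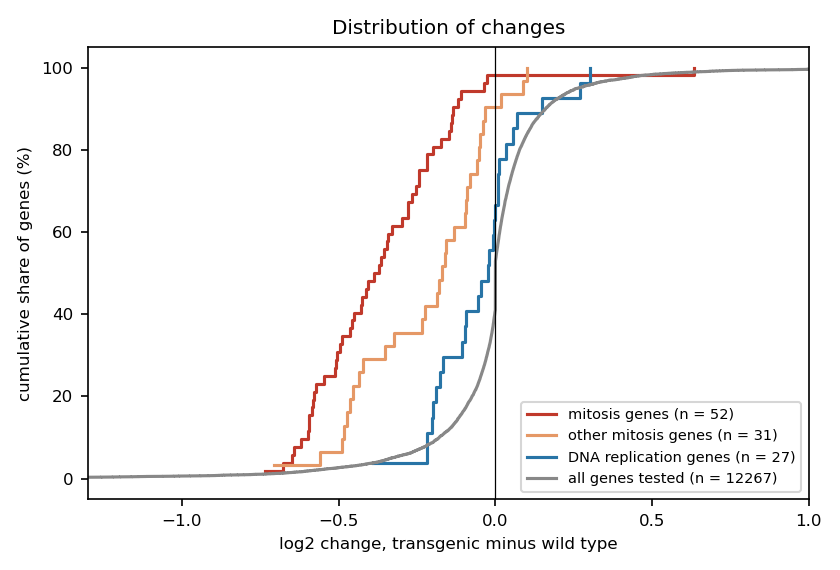
Cumulative share of genes (%) by log2 change, PLZF transgenic minus wild type, for the 52 mitosis genes, 31 other mitosis genes, 27 DNA replication genes and all 12267 genes tested (the axis leaves out the extremes of all genes). The mitosis genes lie left of zero except Pttg1, with a median of -0.38, and the replication genes lie near the curve of all genes.

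Markers of other cells were looked at beside these values. Of 16 listed markers of immature and double-positive thymocytes, stages that include dividing cells, 5 were measured. They averaged 7.22 to 7.34 in the transgenic arrays and 7.26 to 7.33 in the wild type arrays, and none passed the test. One of them, Dntt, the terminal transferase of rearranging thymocytes, measured 6.40, 6.65 and 6.82 in the PLZF transgenic arrays, against 7.07 and 7.26 in the wild type arrays, the same order of arrays as most mitosis genes, with a change of -0.54 ± 0.16 (SE; limma adjusted p = 0.244). Tdrd5 measured 7.32, 7.40 and 7.39 in the PLZF transgenic arrays, against 6.94 and 7.06 in the wild type arrays. It ran the other way from Dntt, with all transgenic arrays higher and a change of 0.37 ± 0.05 (SE; limma adjusted p = 0.0624). Rag2, of the recombinase, was higher in all transgenic arrays as well, at 4.64, 4.64 and 4.72, against 4.49 and 4.59 in the wild type arrays (log2 change 0.12, limma adjusted p = 0.334). Rag2 was dim, with a mean of 4.61 over the 5 arrays. Its lowest transgenic value, 4.64, was close to the 4.59 of wild type replicate 2, so its direction carries little weight. Over the 5 markers 2 changes were negative and 3 positive. The share of such cells in each sample was not tested. B cell markers (7 of 12 measured) averaged 5.92 to 6.01 in the transgenic arrays and 5.88 to 5.93 in the wild type arrays, and myeloid and dendritic markers (9 of 20) 5.96 to 6.10 in the transgenic arrays and 6.02 to 6.11 in the wild type arrays. None of these passed, and Blnk (-0.19) had the largest absolute B cell change and Ly86 (-0.70) the largest myeloid change. Ly86 measured 6.71, 7.15 and 7.18 in the transgenic arrays, against 7.34 and 8.10 in the wild type arrays, the same order of arrays as most mitosis genes. Over the 9 myeloid and dendritic markers 3 changes were negative, 5 positive and 1 at no change, so their average hides changes in both directions. Of the erythroid and stromal markers 6 of 16 were measured, Foxn1, Krt5, Epcam, Col1a1, Col3a1 and Pecam1, none of them erythroid. They averaged 7.06 in each transgenic array and 7.11 to 7.12 in the wild type arrays. Among them Pecam1, which T cells also express, fell (-0.30 ± 0.04, SE, limma adjusted p = 0.0472). Of the mature T cell markers 4 fell, led by S1pr1 (-1.78) and Cd2 (-1.11), with limma adjusted p values of 0.0165 and 0.00955. Their part in the values of the mitosis genes was not tested.

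**Figure D5:**
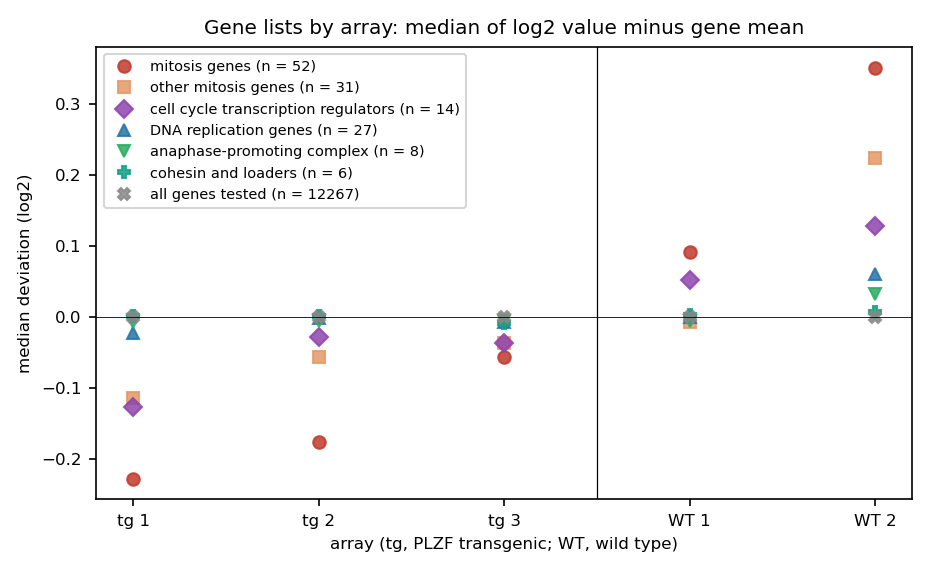
Median over the genes of each list of the log2 value minus the gene's mean over the 5 arrays, for the PLZF transgenic arrays (tg) and the wild type arrays (WT). The mitosis genes run from -0.23 in transgenic replicate 1 to 0.35 in wild type replicate 2, and the anaphase-promoting complex and cohesin lists stay near zero.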

How the data were processed

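RNA of sorted CD4SP thymocytes was, per the labels' protocols, turned into amplified cDNA carrying biotin, for mouse exon arrays. The values deposited by the authors are intensities on a linear scale, 1 column per array. Expression Console (Affymetrix) with RMA, and mm9 as the build, come from the submitters' processing notes, which are used here without versions. Of all genes, 67.2% had identical values in several arrays (within 0.000005 on the log2 scale), which gave some genes a variance of zero that limma offset.

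Of 65529 rows, 14011 were paired with 1 gene symbol by the platform annotation, 864 with several and 50654 with none. Values were taken as log2(intensity + 1). Where a gene had several rows the brightest was kept. Transgenic minus wild type was fitted over 12267 genes in limma (3.58.1, lmFit and eBayes; R 4.3.3). The fit had 3 residual and 0.5 prior degrees of freedom, and the threshold was a Benjamini-Hochberg adjusted p of 0.05. The steps were tested on simulated data. The median intensity was 59.0 to 60.3 per array. The number of arrays limits the precision. The samples are labelled as biological replicates from pooled mice. The members, lists and tests were chosen with earlier results of these data known. Values were given in every array for members past the threshold, for the 3 largest changes of each role and for the highest and lowest mean, and from other lists for members past the threshold or the largest change. Tdrd5, Rag2 and the dimmer rows of Ska3 and Nusap1 were added after their values were seen. Alternatives covered the replicate block, variance model, scaling, rows per gene, dim genes (below the median of gene means, 6.93), array weights, pseudocount, threshold (0.1), identical values and each array left out. No column was left unused. Promoter sequences are from RefSeq (GRCm38.p6), whose first listed window per gene was searched.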

Additional observations from a re-analysis of the deposited data

How the results depend on the processing

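The median change of the members was negative under all alternatives tried, and so was that of every member except Pttg1 and, in some, Ska3. The counts of calls moved with the processing. With the replicate number as a block, which leaves 1 residual degree of freedom, 0 members fell and 0 rose, and of all genes 0 fell and 0 rose. The other mitosis genes that fell were 0 as well. The arrays that share a number had deviations correlated at 0.139 (replicates 1) and 0.0485 (replicates 2), against 0.0915 for transgenic replicate 3 with wild type replicate 2. With 2 wild type arrays their deviations mirror each other, so these values cannot decide whether arrays with the same number were paired. With array weights 0 members fell, 0 rose, 0 other mitosis genes fell, and over all genes 0 fell and 1 rose. After cyclic loess 4 members fell, 0 other mitosis genes fell, and 569 genes fell and 395 rose. After quantile normalization 8 members fell, and 607 genes fell and 525 rose. The share of higher genes among all genes called was 36.3% on the deposited values (211 against 370), 41.0% after cyclic loess and 46.4% after quantile normalization. After median centring 0 other mitosis genes fell. Without dim genes 4 of 41 members fell, and 569 genes fell and 372 rose. Over genes with 5 different values 19 members and 3 other mitosis genes fell, and 625 genes fell and 418 rose. At an adjusted p of 0.1, 628 genes fell and 403 rose.

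With 1 array left out in turn, 0 to 12 members fell and 0 to 1 rose, 0 to 7 other mitosis genes fell and 0 to 1 rose, and 2 to 1571 genes fell and 2 to 1319 rose. Where 1 wild type array is left, its spread is taken from the transgenic arrays. The median change of the members ran from -0.51 to -0.23, and over genes with 5 different values, a combination chosen after seeing the data, from -0.60 to -0.29. In that set 2 to 31 members fell (13 without transgenic replicate 3), the fewest without transgenic replicate 2 or wild type replicate 2 and the most without wild type replicate 1. The change of Ska3 was 0.0127 with array weights, 0.0928 without transgenic replicate 1 and 0.0575 without wild type replicate 1, also in the set with 5 different values, and it ran from -0.132 to 0.0928 over the arrays left out. The causes of these shifts were not tested. For the fits of genes with 5 different values and 1 array left out, calls over all genes were not counted. Counts of members in those fits therefore have no background to be read against.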

Other observations

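Of 21 listed G1 cyclins, kinases and inhibitors 10 were measured, with 5 negative and 5 positive changes (median -0.04), and 1 fell and 1 rose past the threshold. Tob1, an antiproliferative protein of quiescent T cells, measured 10.29, 10.37 and 10.41 in the PLZF transgenic arrays, against 9.40 and 9.30 in the wild type arrays. All transgenic arrays were higher, and the change was 1.01 ± 0.05 (SE; limma adjusted p = 0.014), or 2.01-fold higher. Ccne2, cyclin E2, measured 7.62, 7.71 and 7.57 in the PLZF transgenic arrays, against 8.13 and 8.07 in the wild type arrays. It was lower in all transgenic arrays, with a change of -0.47 ± 0.05 (SE; limma adjusted p = 0.0435). Chosen after its value was seen, Cdk7, the kinase that activates other cyclin-dependent kinases, had a change of 1.09 ± 0.14 (SE; limma adjusted p = 0.0548).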
